A study of Rattus norvegicus with 4 samples.

Results

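Potassium channel genes were taken as every probe set whose only gene symbol began with Kcn, the prefix shared by genes of pore-forming potassium channel subunits and of their auxiliary subunits. This gave 82 probe sets for 54 of the 4736 genes named on the array, and where a gene had several, the one with the highest mean over the 4 arrays stood for it. The 54 genes were 6 of the Kcna, 1 of the Kcnb, 3 of the Kcnc, 2 of the Kcnd, 15 of the Kcnj, 3 of the Kcnk and 2 of the Kcnn subfamily, with 22 others. They were measured in cortex on the side of a stroke in ovariectomised female rats, in which the middle cerebral artery had been closed for 2 h with an intraluminal occluder. The estradiol group received 17beta-estradiol replacement and the placebo group did not, and all animals of both groups had been ovariectomised and had had the stroke. Neither the rats' strain nor their age is given in the sources used here. RNA from 3 animals was pooled for an array, with 2 pools for a group, so no value belongs to a single animal. Pools carry their number in the titles (estradiol 1, estradiol 2, placebo 1, placebo 2), and pairs of values follow that order. The design text names tissue at 6 and 24 h, the codes of these samples carry a 6, and no label states the time in words. The question was which of these genes differed with estradiol replacement after the stroke.

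Potassium channels let potassium leave the cell and so set the resting potential, end the action potential and limit repetitive firing. Voltage-gated subunits open on depolarisation, inward rectifiers pass current near rest and clear potassium from around neurons, pores of the Kcnk genes carry leak current, and other channels open with intracellular calcium or sodium. In ischaemic cortex, falling ATP opens ATP-sensitive channels and potassium accumulates outside the cells.

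The arrays are Affymetrix rat GeneChips, which give 1 linear intensity per probe set and array. Brightness depends on a probe set's sequence, so intensities are compared between pools within a probe set and not between genes. A probe set was called above background on an array where it exceeded the highest of 23 foreign control probe sets (bacterial, yeast or mouse transcripts), which stood between 30.1 and 37.8. By this measure 24 of the 54 genes were above background on all 4 arrays, 17 on some and 13 on none. Testing was limited to probe sets with a mean intensity of at least 37.5, which 36 of the 54 genes passed. Of the other 18, 13 were at background on every array and 5 on some. Kcnj3 with a mean of 36.1 lay just outside this limit, and Kcna6 with 37.8 just inside it. Neuronal signals were present, with 19 of 20 neuron markers on the array passing the limit, among them Snap25 between 1959 and 3001. Of 12 striatum markers on the array 10 passed too, so these signals do not tell cortex from striatum. Slc17a7, a marker of cortical excitatory neurons, was at background on all 4 arrays, between 7.0 and 12.1. Median intensities of the arrays lay between 55.0 and 57.8. In bulk tissue, fewer cells of a type and less RNA per cell cannot be told apart.

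No potassium channel gene passed the test for a difference between estradiol and placebo. With limma and Benjamini-Hochberg adjustment over all 5244 probe sets tested, 0 of 36 genes passed an adjusted p of 0.05 in either direction, against 0% of the 3181 genes tested. At an unadjusted p below 0.05 the count in limma was also 0 of 36, against 2.58% of genes tested (1.7% higher and 0.88% lower) and 1.74% higher and 1.33% lower among probe sets tested. With no intensity filter this count was 2 of 54, against 337 of the 8740 probe sets then tested. The smallest adjusted p among the 36 was 0.998. Log2 differences (estradiol minus placebo, of intensity + 16) lay between -0.75 and 0.57, with 19 genes above 0 and 17 below, a median of 0.04 and a median of 0.01 over all genes tested. Standard errors lay between 0.20 and 0.56 with 2 pools per group, and the 95% intervals of the fit had a median half-width of 0.67. With this offset no difference was past 1 on the log2 scale, yet the intervals reached from -2.06 for Kcns3 to 1.77 for Kcnh6 and do not exclude such changes. The offset sets the size for dim genes: with an offset of 1 in place of 16 the log2 difference was -1.25 for Kcna6 (-0.73 with 16), -1.18 for Kcns3 (-0.75) and 0.95 for Kcnh6 (0.57), and 0 genes passed in limma with either. Without placebo 1 the median of the 36 genes was -0.16, and without placebo 2 it was 0.12.

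**Figure D1:**
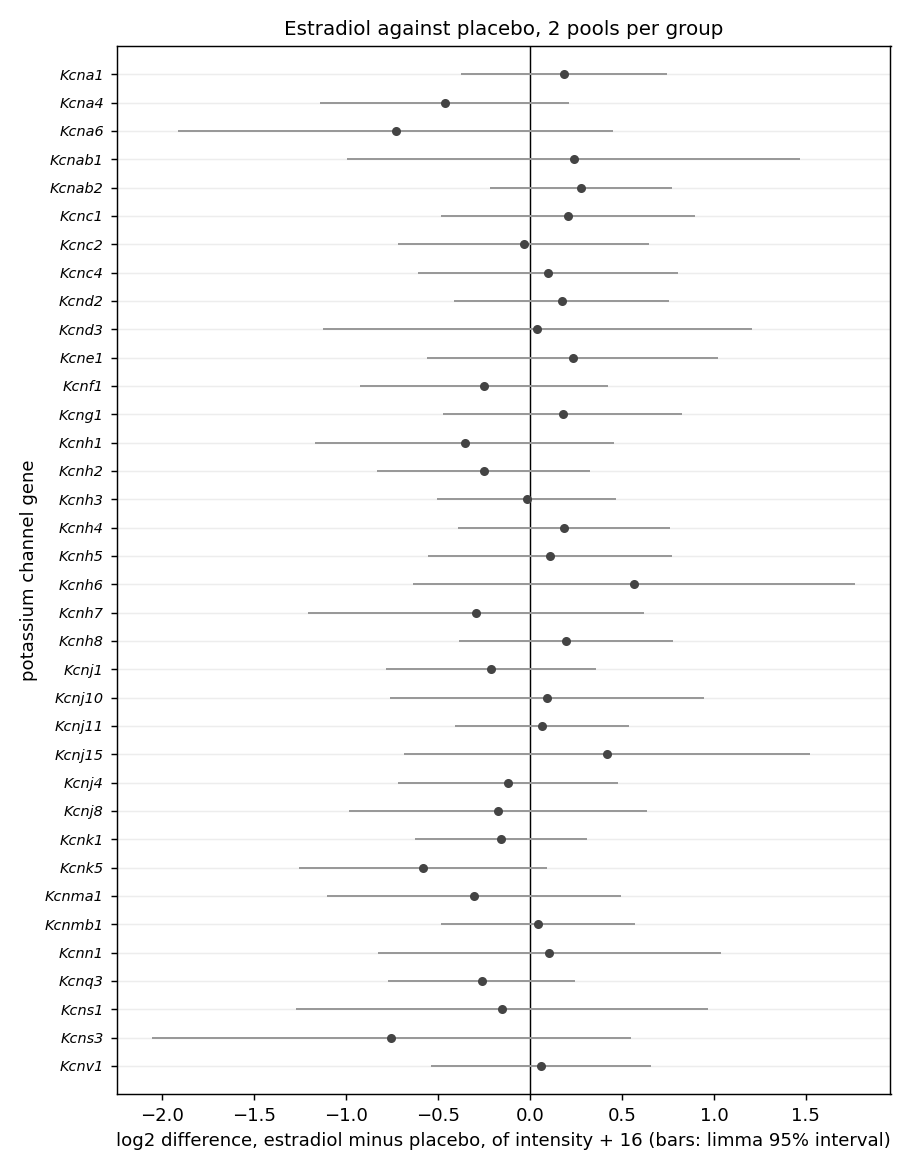
Log2 difference of intensity + 16, estradiol minus placebo, for the 36 potassium channel genes tested, with points for the limma estimate and bars for its 95% interval. Every bar crosses 0, and the points lie between -0.75 and 0.57.

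The treatments did not overlap for 6 of the 36 genes, or 16.7%, against 30.1% of all genes tested. Of these 6, 1 was higher with estradiol (16.1% of all genes tested) and 5 were lower (14% of all genes tested). The higher gene was Kcnh8, and the lower genes were Kcna4, Kcnj1, Kcnk1, Kcnk5 and Kcnq3. With 2 against 2 pools, the smallest two-sided exact permutation p for a single gene is 0.333.

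**Figure D2:**
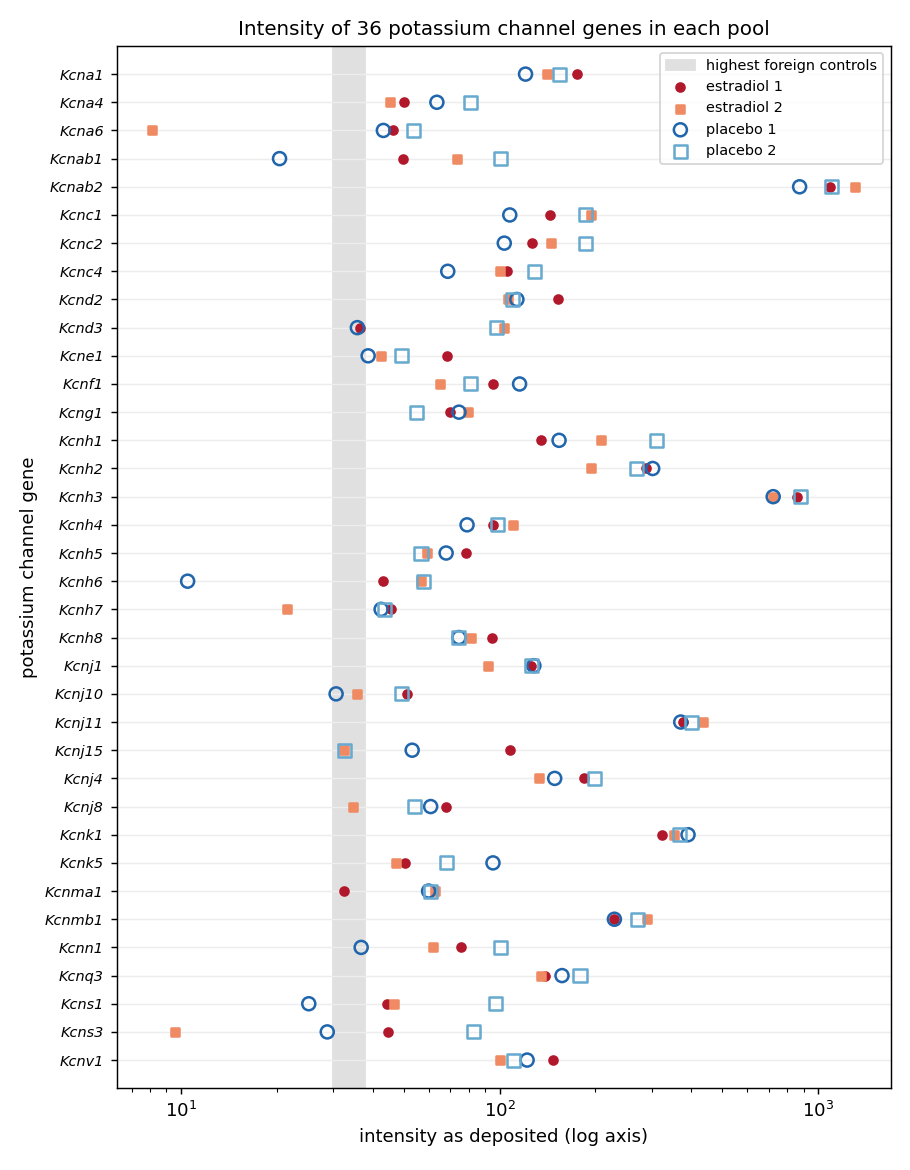
Intensity as deposited, on a log axis, of the 36 potassium channel genes tested, with filled symbols for the 2 estradiol pools and open symbols for the 2 placebo pools. The grey band spans the highest foreign control of each array, from 30.1 to 37.8, and in most genes the symbols of the groups interleave.

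The pore-forming subunits that open on depolarisation include the Kcna genes, whose products sit on axons. Kcna1, which encodes a delayed rectifier of axons, measured 175 and 141 in the estradiol pools against 121 and 155 in the placebo pools. The groups overlapped, and the log2 difference was 0.18 ± 0.24 (SE). Kcna4, which encodes a rapidly inactivating A-type subunit, measured 50.1 and 45.4 in the estradiol pools against 63.6 and 81.1 in the placebo pools. Both estradiol pools lay below both placebo pools, and the log2 difference of -0.46 ± 0.29 (SE) did not pass (limma, adjusted p = 0.998). Kcna6 measured 46.2 and 8.1 in the estradiol pools against 43.2 and 53.7 in the placebo pools. Estradiol 2 alone was low and at background, and without it the log2 difference of -0.73 became -0.05. Kcna2, Kcna3 and Kcna5 were at background on every array, with values from 5.3 to 29.6.

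The Kcnc genes encode fast channels that let interneurons of the fast-spiking kind fire at high rates. Kcnc1 measured 144 and 193 in the estradiol pools against 108 and 186 in the placebo pools. Kcnc2 measured 127 and 145 in the estradiol pools against 104 and 186 in the placebo pools. Kcnc4, whose product inactivates rapidly, measured 105 and 100.2 in the estradiol pools against 68.8 and 129 in the placebo pools. In all 3 genes placebo 1 was lowest, and in Kcnc2 and Kcnc4 placebo 2 was highest. The groups overlapped in each, and the log2 differences between treatments were 0.21, -0.04 and 0.10. Another tested probe set of Kcnc2 had placebo 1 highest, with 42.2 and 35.1 in the estradiol pools against 50.3 and 40.6 in the placebo pools. The remaining Kcnc2 probe sets were at background on every array. In the chosen probe sets of all 3 Kcna genes tested, placebo 1 was likewise below placebo 2. The other tested probe set of Kcna1 had the opposite order, with 44.2 and 37.9 in the placebo pools. Parvalbumin (Pvalb), a marker of fast-spiking interneurons, measured 179 and 229 in the estradiol pools against 207 and 274 in the placebo pools.

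Sequence before the start site was examined for the 40 of 54 genes that matched the promoter table by gene ID, in the 250 bases upstream of the RefSeq start in build GRCr8. The full estrogen response element, GGTCA and TGACC with any 3 bases between them, was found in 0 of 40, against 0.0219% of 27457 promoters. Its single core GGTCA, searched on both strands, was found in 11 of 40 (27.5%), against 35.2% of all promoters. The GC box GGGCGG, on both strands, was found in 20 of 40 (50%), against 32.4% of all promoters, and the median GC content was 63.4% in the 40 and 52% in all. The TATA box TATAAA was found in 2 of 40 (5%), against 13.1% of all promoters, and the cAMP response element in 0 of 40, against 1.7%. These matches are letters in a window, with no measurement of binding. The 3 Kcnc promoters are shown because the chosen probe sets of these genes shared 1 order of the placebo pools. The Kcnk5 promoter is shown because that gene's unadjusted p in limma was the smallest of the 36. Sequences run 5′ to 3′ on the gene's strand, and capitals mark GGTCA and GGGCGG or their reverse complements. Kcnc1 lies on the + strand (chr1:106038997-106039246) and holds 3 GC boxes and 0 cores. Kcnc2 is on the + strand (chr7:49587364-49587613), with 2 cores and 0 GC boxes. Kcnc4 is on the - strand (chr2:197788434-197788683), with 1 core and 1 GC box. Kcnk5 is on the + strand (chr15:4171375-4171624), with 4 GC boxes and 1 core that starts at -95 from the start site.
Kcnc1: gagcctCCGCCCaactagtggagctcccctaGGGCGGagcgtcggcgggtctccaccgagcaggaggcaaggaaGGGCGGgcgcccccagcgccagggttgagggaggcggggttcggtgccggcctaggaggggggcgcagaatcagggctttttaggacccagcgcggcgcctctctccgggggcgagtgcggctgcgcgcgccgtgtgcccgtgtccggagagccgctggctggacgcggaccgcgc
Kcnc2: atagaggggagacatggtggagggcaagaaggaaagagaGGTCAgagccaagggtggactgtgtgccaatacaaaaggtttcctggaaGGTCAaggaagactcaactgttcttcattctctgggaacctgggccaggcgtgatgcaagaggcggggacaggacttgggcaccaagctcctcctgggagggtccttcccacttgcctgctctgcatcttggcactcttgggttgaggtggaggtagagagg
Kcnc4: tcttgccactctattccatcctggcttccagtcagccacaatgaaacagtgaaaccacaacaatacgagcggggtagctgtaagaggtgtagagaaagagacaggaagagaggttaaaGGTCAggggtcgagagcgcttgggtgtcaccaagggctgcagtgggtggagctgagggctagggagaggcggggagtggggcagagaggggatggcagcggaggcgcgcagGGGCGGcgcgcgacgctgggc
Kcnk5: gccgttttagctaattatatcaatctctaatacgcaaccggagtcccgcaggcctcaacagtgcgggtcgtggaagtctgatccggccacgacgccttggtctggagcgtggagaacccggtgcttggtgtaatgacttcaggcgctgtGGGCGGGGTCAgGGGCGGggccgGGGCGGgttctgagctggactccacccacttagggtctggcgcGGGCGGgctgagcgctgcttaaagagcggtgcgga

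The Kcnd genes encode A-type channels of neuronal dendrites and cell bodies. Kcnd2 measured 152 and 107 in the estradiol pools against 113 and 109.5 in the placebo pools. Estradiol 1 was high and the other pools were alike, and the log2 difference was 0.17 ± 0.25 (SE). Kcnd3 measured 36.5 and 103 in the estradiol pools against 35.8 and 98.0 in the placebo pools. Pool 1 of each treatment was near background and pool 2 was above it, while the log2 difference between treatments was 0.04 ± 0.50 (SE). Kcnb2, a delayed rectifier gene, measured 34.5 and 31.6 in the estradiol pools against 10.5 and 7.8 in the placebo pools. The estradiol values were themselves within or next to background, so the gene was not tested and no fold is given.

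Some Kcn subunits form no channel alone and modify Kcnb channels when assembled with them. Kcnf1 measured 95.7 and 64.9 in the estradiol pools against 116 and 81.1 in the placebo pools. Kcng1 measured 69.7 and 79.7 in the estradiol pools against 74.6 and 54.8 in the placebo pools. Kcnv1 measured 147 and 100.2 in the estradiol pools against 122 and 110.3 in the placebo pools. In each of these 3 genes the groups overlapped, and the log2 differences were -0.25, 0.18 and 0.06. Kcns1 measured 44.2 and 46.5 in the estradiol pools against 25.2 and 97.0 in the placebo pools. Both estradiol pools lay between the placebo pools, and the log2 difference of -0.15 became 0.57 without placebo 2. Kcns3 measured 44.7 and 9.6 in the estradiol pools against 28.8 and 82.7 in the placebo pools. It had the lowest log2 difference of the 36 genes, -0.75 ± 0.56 (SE), which was -0.13 without estradiol 2, a pool at background.

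The Kcnh genes encode the ether-a-go-go family, and all 8 on the array were tested. Their log2 differences lay between -0.35 and 0.57, with 4 above 0 and 4 below. Kcnh1, a founding member, measured 135 and 208 in the estradiol pools against 154 and 310.0 in the placebo pools. The pool numbered 2 was higher in each treatment, and the log2 difference was -0.35 ± 0.35 (SE). Kcnh2, whose human counterpart carries the rapid repolarising current of the heart, measured 289 and 194 in the estradiol pools against 303 and 269 in the placebo pools. Kcnh3, a gene of forebrain neurons, measured 859 and 720.1 in the estradiol pools against 723 and 879 in the placebo pools. In both Kcnh2 and Kcnh3 the estradiol pools differed from each other by more than the treatments did. The log2 difference between treatments was -0.25 ± 0.25 (SE) for Kcnh2 and -0.02 ± 0.21 (SE) for Kcnh3. Kcnh8 measured 94.7 and 81.1 in the estradiol pools against 74.6 and 74.2 in the placebo pools. Both estradiol pools were above both placebo pools, by a log2 difference of 0.20 ± 0.25 (SE) that did not pass (limma, adjusted p = 0.998). Kcnh6 measured 43.0 and 56.6 in the estradiol pools against 10.5 and 57.7 in the placebo pools. Its log2 difference of 0.57 ± 0.52 (SE) was the highest of the 36 genes and rested on placebo 1, without which it was -0.17. The groups overlapped in the other Kcnh genes. Kcnh4 measured 95.3 and 110.1 in the estradiol pools against 79.1 and 98.5 in the placebo pools. Kcnh5 measured 78.5 and 59.2 in the estradiol pools against 68.0 and 56.7 in the placebo pools. The log2 differences were 0.18 for Kcnh4, 0.11 for Kcnh5 and -0.30 for Kcnh7.

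Kcnq3 encodes a subunit of the M channel, which neurotransmitters close to raise excitability. It measured 139 and 135 in the estradiol pools against 157 and 179 in the placebo pools. Both estradiol pools were below both placebo pools, with a log2 difference of -0.26 ± 0.22 (SE) and a 95% interval from -0.77 to 0.24. Kcnq1, known from heart and epithelia, was at background on every array, between 3.8 and 5.8.

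Channels opened by intracellular ions were measured through 5 genes. Kcnma1, the pore of the large-conductance calcium-activated channel, measured 32.5 and 62.7 in the estradiol pools against 59.9 and 60.8 in the placebo pools. Estradiol 1 alone was low and at background, and without it the log2 difference of -0.31 became 0.04. Kcnmb1, the beta subunit of that channel in smooth muscle, measured 228 and 291 in the estradiol pools against 229 and 272 in the placebo pools. The treatments overlapped closely, with a log2 difference of 0.04 ± 0.23 (SE). Kcnn1, a small-conductance calcium-activated channel gene, measured 75.6 and 61.7 in the estradiol pools against 36.8 and 101 in the placebo pools. The placebo pools lay on either side of the estradiol pools, and the log2 difference was 0.10 ± 0.40 (SE). Kcnn3 was at background on every array, and Kcnt1, which encodes a sodium-activated channel, was above it in placebo 2 alone, at 45.1.

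Of the 15 inward rectifier genes (Kcnj), 6 were tested, with log2 differences between -0.21 and 0.42, 3 above 0 and 3 below. Kcnj11, the pore of the neuronal ATP-sensitive channel, measured 376 and 434 in the estradiol pools against 371 and 399.9 in the placebo pools. The groups overlapped, and the 95% interval of the log2 difference of 0.07 ran from -0.41 to 0.54. Kcnj8, the ATP-sensitive channel gene of vascular mural cells, measured 67.7 and 34.6 in the estradiol pools against 60.8 and 54.0 in the placebo pools. Estradiol 2 was low and at background, and the log2 difference was -0.17 ± 0.35 (SE). The regulatory subunits of these channels gave log2 differences of -0.01 for Abcc8, the sulfonylurea receptor paired with Kcnj11 in neurons, and 0.16 for Abcc9, that of vascular cells. Kcnj10, the astrocyte channel that takes up potassium, measured 51.1 and 35.6 in the estradiol pools against 30.7 and 49.3 in the placebo pools. Only estradiol 1 and placebo 2 were above background, so its log2 difference of 0.09 ± 0.37 (SE) compares values near the limit of detection. Kcnj4, a strong inward rectifier gene of forebrain neurons, measured 185 and 134 in the estradiol pools against 149 and 199 in the placebo pools. Kcnj1, known best from the kidney, measured 126 and 91.7 in the estradiol pools against 128 and 126 in the placebo pools. The first overlapped between treatments. In the second both estradiol pools were below both placebo pools, though by 0.3 intensity units in estradiol 1, and the log2 difference was -0.21 ± 0.24 (SE). Kcnj15 measured 108 and 32.6 in the estradiol pools against 53.2 and 32.6 in the placebo pools, and its log2 difference of 0.42 ± 0.47 (SE) became -0.25 without estradiol 1.

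The G protein-gated rectifier genes Kcnj3, Kcnj5, Kcnj6 and Kcnj9, through which inhibitory transmitters hyperpolarise neurons, were not tested. Kcnj3 was at background with estradiol, at 25.2 and 34.5, and above it with placebo, at 38.7 and 46.0. By this probe set the log-scale mean of these 2 estradiol pools was at least 1.18-fold below that of the 2 placebo pools. This bound was taken against the highest foreign control of each array. It describes these pools, carries no error, and the difference was not tested. The bound rests on values near background, since that control stood at 37.8 in placebo 1. The other Kcnj3 probe set was at background on every array, with 28.9 and 27.2 in the estradiol pools against 37.5 and 19.4 in the placebo pools. Its groups overlapped. Kcnj5, Kcnj6 and Kcnj9 were at background on every array. Kcnj13, a channel gene of choroid plexus, likewise never exceeded background, with values from 2.9 to 6.3. Kcnj2, Kcnj12 and Kcnj16 were at background on every array as well, and Kcnj14 was above it in estradiol 1 and placebo 2.

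The Kcnk genes encode leak channels with 2 pore domains per subunit. Kcnk5, which encodes an acid-sensitive leak channel, measured 50.5 and 47.3 in the estradiol pools against 95.4 and 68.4 in the placebo pools. Both estradiol pools were below both placebo pools, with a log2 difference of -0.58 ± 0.29 (SE) and a 95% interval from -1.25 to 0.09. Its unadjusted p in limma was 0.0823 and its adjusted p 0.998. With 1 pool left out the log2 difference lay between -0.78 and -0.38. Kcnk1, a weak inward rectifying leak channel gene, measured 323 and 353 in the estradiol pools against 391 and 366 in the placebo pools. The groups did not overlap, by a log2 difference of -0.16 ± 0.20 (SE). Kcnk3 was at background on every array, between 12.5 and 24.4.

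Auxiliary subunits bind the pore-forming proteins and change their gating or transport. Kcnab2, which encodes a cytoplasmic beta subunit of Kcna channels, measured 1089 and 1308 in the estradiol pools against 875 and 1100.1 in the placebo pools. The groups overlapped, and the log2 difference was 0.28 ± 0.21 (SE). Kcnab1 measured 49.8 and 73.6 in the estradiol pools against 20.4 and 100.4 in the placebo pools. Its placebo pools enclosed both estradiol pools, and the log2 difference of 0.24 became -0.60 without placebo 1 and 1.08 without placebo 2. Kcnab3 was not tested and was above background in estradiol 1 and placebo 2, at 34.8 and 57.6. Kcne1, a small membrane subunit known as partner of Kcnq1, measured 68.3 and 42.4 in the estradiol pools against 38.7 and 49.2 in the placebo pools, a log2 difference of 0.23 ± 0.34 (SE).

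Differences between treatments were set beside those between pools of 1 treatment. The first are between means of 2 pools and the second between single pools, which vary more. Their sizes therefore do not show where more of the variation lay. For 31 of the 36 genes (86.1%) the log2 difference between treatments was smaller than the larger of the 2 differences between pools, as for 81.1% of all genes tested. The 5 others were Kcna4, Kcnh8, Kcnk1, Kcnk5 and Kcnq3. The median absolute difference was 0.19 for the treatments, 0.35 within estradiol and 0.30 within placebo. Over all genes tested these were 0.18, 0.26 and 0.26. The pools that were lowest were often estradiol 2, in 15 of 36 genes (24.1% of all genes tested), and placebo 1, in 14 of 36 (30.7% of all genes tested). Estradiol 1 was lowest in 4 and placebo 2 in 3. The highest pool was placebo 2 in 13 genes (26.3% of all genes tested), estradiol 1 in 10 (22.9%), estradiol 2 in 8 (29.3%) and placebo 1 in 5 (21.5%). Estradiol 1 was below estradiol 2 in 14 of the 36 genes, against 52.9% of all genes tested. Among the 24 genes above background on all 4 arrays, estradiol 2 was lowest in 10 (23.6% of such genes on the array) and placebo 1 in 8 (29.6%).

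Placebo 1 was below placebo 2 in 24 of the 36 genes (66.7%), against 55.6% of all genes tested. The placebo pools differed by more than 1 on the log2 scale in 6 genes, against 5.44% of all genes tested, and placebo 1 was the lower pool in all 6. These were Kcnab1 with -1.68, Kcnh6 with -1.48, Kcns1 with -1.46, Kcnn1 and Kcns3 with -1.14 each and Kcnd3 with -1.14, as placebo 1 minus placebo 2. All 6 were at background in placebo 1, so these are differences on the offset scale and not measured folds. Among the 24 genes above background on all 4 arrays, 14 were lower in placebo 1, against 54.9% of such genes on the array. The Kcnc genes were in this group, with differences of -0.71 for Kcnc1, -0.76 for Kcnc2 and -0.77 for Kcnc4. The estradiol pools differed by more than 1 on the log2 scale in 4 genes, against 3.99% of all genes tested, namely Kcna6, Kcnj15 and Kcns3, which were higher in estradiol 1, and Kcnd3, which was lower there.

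Markers of other cell types also differed between the pools. All 19 neuron markers tested were lower in placebo 1 than in placebo 2, with a median of -0.44, and their summed intensity was 22404 and 23171 in the estradiol pools against 21329 and 27549 in the placebo pools. All 8 oligodendrocyte markers tested were higher in placebo 1, with a median of 0.63. All 9 choroid plexus and meninges markers tested were higher in placebo 1, with a median of 1.62, and their summed intensity was 2459 and 7102 in the estradiol pools against 13090 and 1423 in the placebo pools. Of the markers on the array, 1 of 20 for neurons and 1 of 11 for choroid plexus and meninges (Slc22a6) was at background on all 4 arrays. Ttr, the abundant choroid plexus transcript, measured 165 and 4312 in the estradiol pools against 8034 and 74.3 in the placebo pools, so it was high in estradiol 2 and placebo 1. The part of these markers in the potassium channel values was not tested. Between treatments, the median log2 difference was -0.05 for neuron, -0.03 for astrocyte, -0.07 for oligodendrocyte, 0.03 for choroid plexus and meninges and -0.05 for microglia and macrophage markers. It was -0.30 for 10 vascular and mural, 0.38 for 10 striatum and -0.48 for 8 blood cell markers. Of these 8 lists 0 genes passed the adjusted threshold in limma. At an unadjusted p below 0.05 in limma there were 2 vascular, 3 striatum and 3 blood cell markers, against 2.58% of all genes tested. The 3 blood cell markers were haemoglobin genes lower with estradiol (Hba-a3, Hbb and Hbb-b1). Of the 8 blood cell markers 6 were lower and 2 higher, namely the haemoglobin gene Hbe1 (0.26) and Cd4 (0.68). The 3 striatum markers were Tac1, Penk and Drd1, all higher with estradiol, in a list with 7 above 0 and 3 below.

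**Figure D3:**
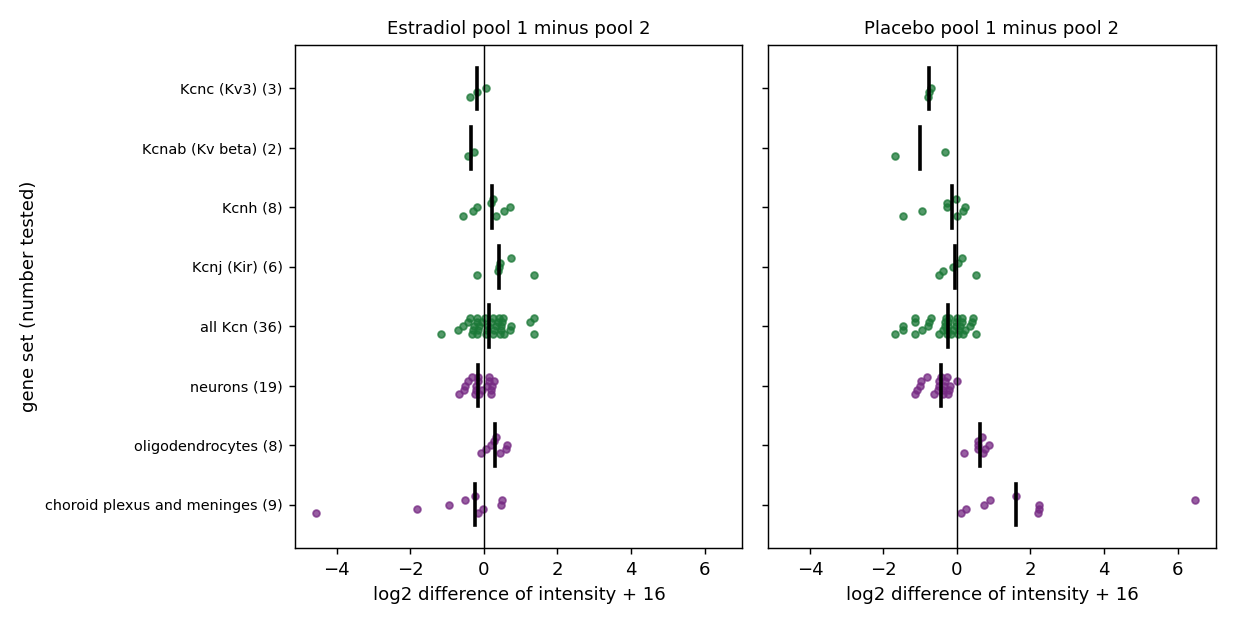
Log2 difference of intensity + 16 between pool 1 and pool 2 of each treatment, with a point per gene and a black line at the median of each set. In the placebo panel the 3 Kcnc genes lie near -0.76 and all 19 neuron markers lie below 0, while oligodendrocyte and choroid plexus markers lie above 0.

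For 8 genes, another probe set was also tested, and 6 of these 8 had the sign of the chosen one. The 2 with the opposite sign were those of Kcnj1, at 0.10 against -0.21, and Kcnj4, at 0.10 against -0.12. The other probe set of Kcnh2 gave -0.68 against -0.25, from 42.2 and 69.4 in the estradiol pools against 76.2 and 123 in the placebo pools. It was above background on all 4 arrays and its groups did not overlap. Its unadjusted p in limma was 0.0729, below the 0.0823 of Kcnk5, and its adjusted p was 0.998. That of Kcnj11 gave 0.36 against 0.07, from 179 and 194 in the estradiol pools against 91.3 and 215 in the placebo pools, and placebo 1 was again the low pool. The remaining values were 0.17 against 0.18 for Kcna1, 0.09 against 0.28 for Kcnab2, -0.17 against -0.04 for Kcnc2 and -0.57 against -0.02 for Kcnh3. Of the 54 chosen probe sets, 18 have names ending in _s_at, which in the maker's naming marks probes that can match more than 1 transcript, so values of close paralogs may share signal there.

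Proteins that bind, cluster or regulate potassium channels had no member past the threshold. Of 28 genes listed, 18 were on the array and 13 were tested, and 0 passed in limma, adjusted or at an unadjusted p below 0.05. Their median log2 difference was -0.01, with 6 above 0 and 7 below. Cntn1, which encodes the adhesion protein contactin, measured 110.1 and 131 in the estradiol pools against 184 and 135 in the placebo pools, and Src, a tyrosine kinase gene, 67.7 and 21.0 against 37.7 and 55.5. These gave the lowest log2 differences, -0.36 ± 0.25 (SE) and -0.16 ± 0.46, and only Cntn1 had groups that did not overlap. Abcc9 measured 225 and 227 against 175 and 229, and Grb2, an adaptor gene, 724 and 760.1 against 630.1 and 773. These gave the highest, 0.16 ± 0.23 and 0.09 ± 0.20, with placebo 1 the low pool in both. Dlg4, whose product clusters Kcna channels at synapses, had -0.02 ± 0.20. In 11 of the 13 genes placebo 1 was below placebo 2.

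Genes of potassium clearance and of chloride transport coupled to cations, of which 11 of 17 listed were on the array and 10 tested, also gave 0 calls in limma, adjusted or at an unadjusted p below 0.05. Their median log2 difference was -0.04, with 3 above 0 and 7 below. Slc12a5, the potassium-chloride cotransporter gene of neurons, measured 835 and 814 in the estradiol pools against 401 and 790.1 in the placebo pools. Both estradiol pools were above both placebo pools, and the log2 difference of 0.54 ± 0.31 (SE) had placebo 1 as its low pool. Slc12a2, the inward chloride cotransporter gene, measured 224 and 253 against 244 and 176, with overlapping groups and a log2 difference of 0.19 ± 0.24. The lowest were Fxyd1, which encodes a regulator of the sodium pump, and Slc12a7, another potassium-chloride cotransporter gene. Fxyd1 measured 417 and 394 against 559 and 449, without overlap, and its log2 difference was -0.30 ± 0.21. Slc12a7 measured 24.9 and 60.0 against 99.1 and 21.6, so that each treatment had 1 pool at background, and its log2 difference was -0.24 ± 0.57. The sodium pump subunit genes Atp1b1, Atp1b2 and Atp1b3 had -0.16, -0.19 and -0.04.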

How the data were processed

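The values are linear intensities as deposited, and they had been scaled by the authors, since the means of the 4 columns after trimming 2% at each end lie between 150.18 and 150.20. The program behind them is not named in the labels used here. From the 8799 rows, 59 controls were removed. Gene symbols came from the platform annotation, were checked through gene identifiers against RefSeq (GRCr8) and needed 0 changes. Intensities were used as log2(value + 16), which understates differences of dim probe sets, and probe sets with a mean below the 40th percentile (37.5) were left out. Estradiol and placebo were compared with limma 3.58.1 in R 4.3.3 (lmFit, eBayes with an intensity trend, two-sided, Benjamini-Hochberg over 5244 probe sets, threshold 0.05). The fit was also run on simulated data with changes of 2 and 4 on the log2 scale. Those changes are larger than any difference of the potassium channel genes, so that run does not show whether smaller changes would be found. SE is that of the fit. The number of arrays limits the precision. P-values and SEs combine the spread between the 2 pools of a group with the variance expected at that intensity from all probe sets tested. The expected variance had the greater weight, with 5.63 prior against 2 residual degrees of freedom. The design text calls the 2 pools independent. Named with all values were genes above background on all arrays, the 3 highest and 3 lowest differences, the brightest gene of each subfamily, genes whose probe sets disagree in sign and the 2 highest and 2 lowest differences of each partner list. The members and lists were chosen with earlier results of these data known, and genes outside the rule after their values were seen. The alternatives concerned offset, filter, normalisation, choice of probe set, trend, block and pools left out. Plots were made with Python 3.11.15 and matplotlib 3.10.9.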

Additional observations from a re-analysis of the deposited data

How the results depend on the processing

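Under 13 alternatives (offsets of 1 and 64, no filter, a filter at the 60th percentile, median centring, quantile normalisation, the mean of all probe sets of a gene, no intensity trend, the pool number as a block and each pool left out) limma called 0 probe sets and 0 potassium channel genes in every case. A block on the pool number cannot change the estimates in this balanced design, so the median of the potassium channel genes stayed at 0.04. The count of calls with this block was 0. The deviations of pools with the same number had a correlation of 0.036 over the probe sets tested and 0.38 over the potassium channel genes. With 2 pairs and no label that links them, the pools were taken to share only a number. The median lay between 0.0092 and 0.079 under the settings with all pools, and between -0.16 and 0.12 with 1 pool left out. Genes without overlap between groups numbered 12 with no filter, when 54 genes entered, 3 with the filter at the 60th percentile, when 18 did, and 18 to 24 with 1 pool left out, when 1 pool stood for a group. A single pool set against 2 falls outside them in most orders. Shares over all genes were not computed for these settings, so the counts are no result about potassium channel genes. With all probe sets averaged, the sign turned for 4 genes, Kcnc2 (0.11), Kcnh8 (-0.075), Kcnj1 (0.23) and Kcnmb1 (-0.059). With 1 pool left out, 12 genes kept their sign and 24 did not. The ranges of their log2 differences were Kcnab1 -0.60 to 1.08, Kcnc1 -0.15 to 0.56, Kcnc2 -0.41 to 0.34, Kcnc4 -0.29 to 0.49, Kcnd2 -0.057 to 0.40, Kcnd3 -0.55 to 0.63, Kcne1 -0.032 to 0.50, Kcng1 -0.000604 to 0.36. They were also Kcnh1 -0.83 to 0.12, Kcnh2 -0.52 to 0.019, Kcnh3 -0.16 to 0.12, Kcnh5 -0.055 to 0.27, Kcnh6 -0.17 to 1.30, Kcnh7 -0.65 to 0.063, Kcnj10 -0.15 to 0.33, Kcnj11 -0.034 to 0.17. The last were Kcnj15 -0.25 to 1.09, Kcnj4 -0.33 to 0.091, Kcnj8 -0.54 to 0.19, Kcnma1 -0.65 to 0.044, Kcnmb1 -0.12 to 0.21, Kcnn1 -0.47 to 0.68, Kcns1 -0.88 to 0.57, Kcnv1 -0.18 to 0.31.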
